A study of Mus musculus with 4 samples.

Results

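Axl, Mertk and Tyro3 are the 3 TAM receptor tyrosine kinases, and Gas6 and Pros1 (protein S) are their ligands. These 5 genes were followed across 4 Illumina bead arrays of mouse RNA, by every probe that the platform's table gives to 1 of their symbols. The table held 1 probe for each, 5 of 24613 probes, and the array covered 15967 named genes. The genes were chosen by the measured levels of Axl, whose difference between 2 tumor lines is among the largest, so the difference between those lines is given below as a description, with no test.

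The samples were T23 and T1525, which are cell lines from prostate tumors of TRAMP mice on a C57Bl/6 background at 30 weeks of age, with 1 array each, and normal prostate of WT C57Bl/6 mice at 18 weeks of age, with 2 arrays (normal 1 and normal 2, always given in that order). TRAMP mice carry SV40 tumor antigens under a probasin promoter, which acts in prostate epithelium. The labels do not say whether separate mice gave the normal arrays, name no prostate lobe and give no second culture of a line, so SDs and p-values measure the spread between these arrays, which may be technical, and a single line has no replicate check. Tumor, the TRAMP transgene, age and growth in culture cannot be told apart in any comparison with normal prostate.

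The TAM receptors sit in the cell membrane and carry a kinase domain inside the cell. Gas6 and protein S are vitamin K-dependent proteins: one end holds gamma-carboxylated glutamates that bind phosphatidylserine on dying cells and platelets, and the other end binds the receptor. Gas6 binds all 3 receptors, whereas protein S, a plasma anticoagulant cofactor, binds Tyro3 and Mertk. The receptors are known for the uptake of dying cells by macrophages and Sertoli cells, for damping innate immune responses, and, in the case of Axl, for expression in mesenchymal and invasive tumor cells.

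The sequences around the annotated starts of Axl and Gas6 are shown because these genes had the largest differences among the 5, Axl between the lines and Gas6 between the lines and normal prostate. Each is the RefSeq window in build GRCm38.p6 of 250 bases before to 50 after the start, read 5′ to 3′ on the gene's minus strand, chr7:25788684-25788983 for Axl and chr8:13494486-13494785 for Gas6. The start used by the table lies 191 bases inside the gene's outer end for Axl and 1774 for Tyro3, and at that end for the other 3. Capitals mark the GC box of Sp1-type factors (GGGCGG) and the TEAD core (GGAATG) on either strand, so that a GC box on the other strand reads CCGCCC. 
Axl: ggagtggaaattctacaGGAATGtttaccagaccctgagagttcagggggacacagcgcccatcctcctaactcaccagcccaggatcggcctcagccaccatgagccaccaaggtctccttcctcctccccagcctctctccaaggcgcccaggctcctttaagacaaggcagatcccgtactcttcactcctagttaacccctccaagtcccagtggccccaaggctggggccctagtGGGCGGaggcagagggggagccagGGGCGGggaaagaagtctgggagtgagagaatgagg
Gas6: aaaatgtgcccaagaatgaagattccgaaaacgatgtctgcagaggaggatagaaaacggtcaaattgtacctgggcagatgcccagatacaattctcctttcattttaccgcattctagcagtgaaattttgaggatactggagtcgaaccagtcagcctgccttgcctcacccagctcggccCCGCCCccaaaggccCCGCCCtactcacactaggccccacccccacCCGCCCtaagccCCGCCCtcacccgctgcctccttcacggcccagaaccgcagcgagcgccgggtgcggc
The Axl window held 2 GC boxes, with first bases at -10 and 15 from the start, and 1 TEAD core at -233. The Gas6 window held 4 GC boxes, all on the opposite strand with first bases between -66 and -8, and no TEAD core. All 5 genes were matched in the table, and GC boxes stood in all 5 windows (4 for Mertk, 6 for Tyro3 and 5 for Pros1), where 35.7% of all 32851 windows of this length held at least 1. Axl's was the only member window with a TEAD core, which 14.7% of all windows held. The AP-1 site (TGACTCA), the E-box bound by ZEB factors (CACCTG) and TATAAA were searched on both strands as well and stood in none of the 5 windows, against 5.2%, 20.2% and 13.6% of all windows. No motif overlapped another in the 2 windows printed. The 5 windows were 58.3% to 73.3% G or C, against a median of 52.7% over all windows, and the shares above make no allowance for that. A match says only that these letters occur.

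Values are log2 of the deposited normalized intensity. A level counted as above background when it passed 6.69 on this scale, an intensity of 103, estimated from the dim probes. Where every array of a group lay at or below it, its values were set to that threshold and the fold is given as at least that much. Of 24613 probes 15767 passed the threshold on at least 1 array, among them all 5 member probes, and between 50.8% and 51.0% of probes did so on each array. The labelled tissues were checked against marker genes. Prostate luminal markers were above background in 4 of 4 cases in both normal samples, in 1 of 4 in T23 (Hoxb13) and in 0 of 4 in T1525. Of 5 epithelial markers, T1525 had 5 above background, each normal sample had 4 and T23 had 1, Krt18. The marker below background in normal prostate was Epcam, at 6.31 and 6.21, which read 7.03 in T1525. Of 5 fibroblast markers T23 and each normal sample had 5 and T1525 had 1.

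**Figure D1:**
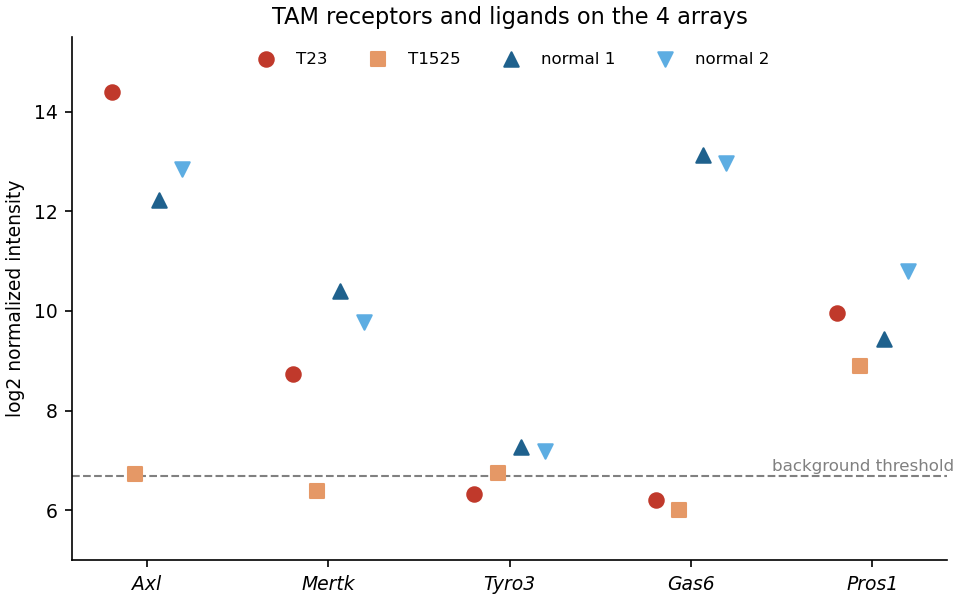
Log2 normalized intensity (vertical axis) of the 5 genes (horizontal axis) on each of the 4 arrays, 1 point per array, as measured; the dashed line is the background threshold of 6.69. Axl is highest in T23 and at the threshold in T1525, Gas6 is far above it in normal prostate only, and Pros1 is above it on all 4 arrays.

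Axl, the receptor for Gas6 alone, lies on chromosome 7 (25756500 to 25788924, GRCm38.p6). Its intensity was 21514 in T23 and 105 in T1525, against 4798 in normal 1 and 7318 in normal 2, or 14.39, 6.72, 12.23 and 12.84 in that order on the log2 scale. T23 therefore lay above both normal samples and T1525 below both, and the T1525 value was just past the background threshold of 6.69. The log2 difference of T23 minus T1525 was 7.67, a 204-fold gap that the background level in T1525 limits, and it ranked 10 by size among the 15767 probes. Against the normal mean of 12.53 ± 0.43 (SD, n = 2), Axl was 3.63-fold higher in T23 and 56.2-fold lower in T1525, given without a test because Axl was picked for the gap between the lines. A pattern of this kind, with T23 above both normal samples and T1525 below both, was found at 8.19% of probes, and at 16.5% in either order of the lines.

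The comparison of the 2 lines as a class with the 2 normal samples does not see this split. The Axl means were 10.56 ± 5.43 (SD, n = 2) in the lines and 12.53 in normal prostate, a difference of -1.98. It is given without a test, since its spread is set by the gap for which Axl was chosen.

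Mertk, the receptor best known from macrophages and from the retinal pigment epithelium, lies on chromosome 2 (128698915 to 128803162). Its log2 level was 8.73 in T23 and 6.38 in T1525, against 10.41 and 9.77 in normal prostate. Both lines lay below both normal samples, as at 25.8% of probes, T23 clearly above background and T1525 below it. Mertk fell in T1525 by at least 10.5-fold (limma, fitted log2 difference -3.71, SE 0.35, adjusted p = 0.00968). In T23 it read 2.56-fold lower, which did not pass (limma, log2 difference -1.35, SE 0.35, adjusted p = 0.0593). It passed in T23 when probes had to be above background on at least 2 arrays (adjusted p = 0.0417) and with cyclic loess (adjusted p = 0.0406), over 8 alternatives between 0.0406 and 0.0616. The class difference was -2.53 (limma, SE 0.88, adjusted p = 0.146). It passed with the spread from the normal pair alone (limma, adjusted p = 0.0101). Over the alternatives that kept all 4 arrays the adjusted p lay between 0.0101 and 0.200. Leaving out T23 only repeats the T1525 comparison, with its difference of -3.71. Between the lines Mertk was at least 4.12-fold higher in T23.

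Tyro3, the third receptor, lies on the same chromosome (119797740 to 119818104) and was dim on every array. It read 6.33 in T23 and 6.74 in T1525, against 7.27 and 7.20 in normal prostate on the log2 scale. The normal samples were above both lines, T23 was below background and T1525 just past it. Tyro3 was at least 1.45-fold lower in T23 (limma, fitted log2 difference -0.90, SE 0.22, adjusted p = 0.0524) and 1.41-fold lower in T1525 (log2 difference -0.49, SE 0.22, adjusted p = 0.167), and the class difference of -0.70 did not pass either (SE 0.26, adjusted p = 0.164). At levels this close to background a difference is compressed. The T23 value passed in 4 of 8 alternatives, with adjusted p between 0.0374 and 0.0536.

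Gas6, the ligand of all 3 receptors, showed the clearest difference from normal prostate. The gene lies on chromosome 8 (13465374 to 13494535). Its intensity was 9009 in normal 1 and 7995 in normal 2 but 73.9 in T23 and 64.3 in T1525, both below background. On the log2 scale normal prostate read 13.05 ± 0.12 (SD, n = 2) and the lines 6.11 ± 0.14 (SD, n = 2). Gas6 fell by at least 82.0-fold in the lines as a class (limma, fitted log2 difference -6.94, SE 0.23, adjusted p = 0.00638). The same bound held in T23 (limma, adjusted p = 0.00491) and in T1525 (limma, adjusted p = 0.00505) alone. Without normal 1 the class difference was -6.86 (adjusted p = 0.12) and without normal 2 it was -7.03 (adjusted p = 0.161); with either array left out limma called 0 probes of the whole table, and over 12 alternatives the adjusted p of Gas6 lay between 0.0033 and 0.161.

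Pros1, which encodes protein S, lies on chromosome 16 (62854307 to 62929346) and was the only member clearly above background on all 4 arrays. It read 9.97 in T23 and 8.90 in T1525, against 9.43 and 10.81 in normal prostate. T23 lay between the normal samples and T1525 below both. The normal samples differed from each other by 1.37, a gap that 3.13% of probes exceeded. No comparison passed: the class difference was -0.68 (limma, SE 0.64, adjusted p = 0.503), that of T23 was -0.15 (SE 0.64, adjusted p = 0.863) and that of T1525 was -1.22 (SE 0.64, adjusted p = 0.216). The difference of T23 was 0.53 from normal 1 alone and -0.84 from normal 2 alone. Between the lines T23 read 2.09-fold higher.

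**Figure D2:**
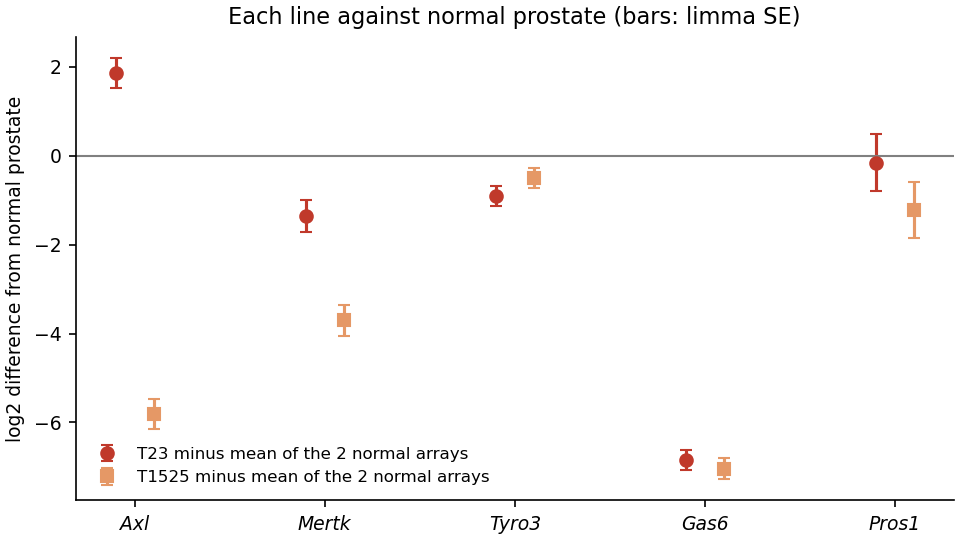
Log2 difference of T23 and of T1525 from the mean of the 2 normal arrays (vertical axis) for the 5 genes (horizontal axis), as measured; bars are limma's SE from the fit of 3 groups. Gas6 lies near -7 in both lines, Axl lies at 1.86 in T23 and at -5.81 in T1525, and Pros1 in T23 lies within its SE of 0. The bars on Axl are not to be read as a test, since Axl was chosen for the gap between the lines.

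Apart from Axl, which was not tested, 1 of 4 member probes was called in the class comparison, Gas6, where 10.8% of all 15767 probes were called, 5.64% higher and 5.13% lower. In the single lines 1 of 4 was called in T23, Gas6, against 29.1% of all probes (16.3% higher, 12.8% lower), and 2 of 4 in T1525, Gas6 and Mertk, against 29.8% (17.2% higher, 12.6% lower). These shares of so few genes say nothing of the set as a whole. Between the lines Axl, Mertk and Pros1 were past 2-fold, 3 of 5, all higher in T23, while 20.3% of probes were past 2-fold, 9.98% higher in T23 and 10.3% higher in T1525. That contrast chose the genes, so nothing is read from the count. In T1525 no receptor read clearly above background: Mertk was below it, and Axl and Tyro3 were past 6.69 but below a stricter threshold of 6.88. In T23 Axl and Mertk were above both.

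**Figure D3:**
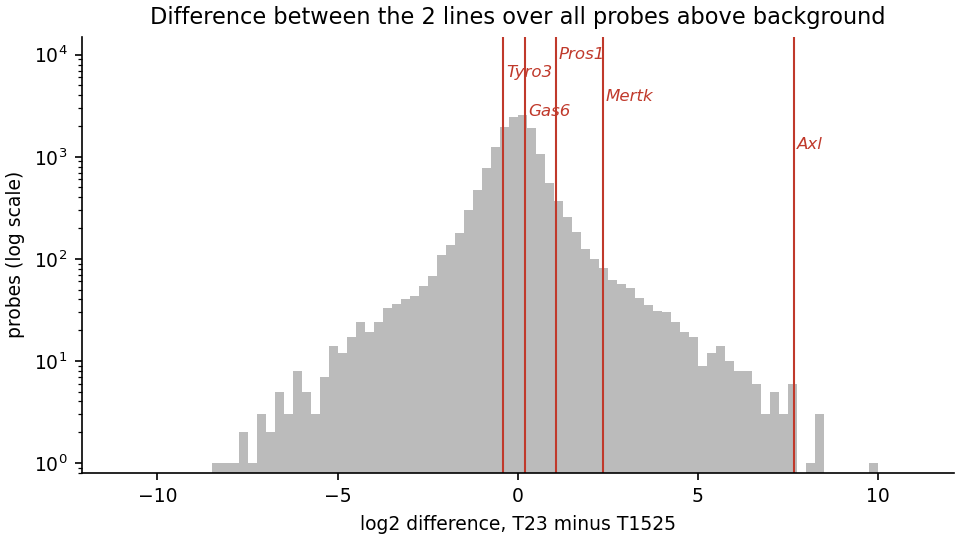
Histogram of the log2 difference T23 minus T1525 (horizontal axis) for the 15767 probes above background on at least 1 array, with the number of probes on a log scale (vertical axis). Red lines mark the 5 genes: Axl at 7.67 stands in the far right tail, Mertk at 2.35 and Pros1 at 1.06 lie right of the bulk, and Gas6 at 0.20 and Tyro3 at -0.41 lie within it.

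The genes that make or expose the ligands' binding surface were described by a list of 10 genes for gamma-carboxylation and phosphatidylserine exposure, of which 9 had a probe and 8 were tested. None was called in the class comparison or in T23, and 3 of the 8 fell in T1525, where 12.6% of all probes fell: Vkorc1, Ano6 and Plscr1. Vkorc1, the epoxide reductase that recycles vitamin K, read 12.22 in T23 and 10.69 in T1525, against 12.99 and 12.63 in normal prostate (T1525: limma, log2 difference -2.12, adjusted p = 0.0147). Ano6, a phospholipid scramblase, was above background in T23 and normal prostate but not in T1525 (T1525: limma, adjusted p = 0.0142). The median difference over the list was -0.03 in T23 and -0.45 in T1525, beside 0.08 and 0.07 over all probes.

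Among 6 sheddases and other ligands, all with a tested probe, Adam17 rose in both lines and no other gene was called, beside 16.3% and 17.2% of all probes higher in T23 and T1525. Adam17, the metalloprotease that releases many receptor ectodomains, Mertk's among them, read 10.30 in T23 and 11.28 in T1525, against 9.07 and 9.38 in normal prostate (limma, adjusted p = 0.0495 in T23 and 0.0144 in T1525, class adjusted p = 0.094); the T23 call ended with cyclic loess. Adam10 reached 6.77 in T1525 and was below background on the other arrays. Lgals3, a galectin reported as a Mertk ligand, read 13.32 in T23 and 14.26 in T1525, against 11.44 and 14.39 in normal prostate, a spread between the normal samples larger than any difference of the lines. The list's median difference was 0.42 in T23 and 0.58 in T1525.

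The other bridges and receptors for phosphatidylserine numbered 14 genes, 13 with a probe and 7 tested. Itgav, the alpha chain of the integrins that bind Mfge8, rose in the class comparison (limma, log2 difference 1.46, SE 0.26, adjusted p = 0.0485) and in each line; the class call ended with cyclic loess. Mfge8, a secreted bridge between phosphatidylserine and those integrins, read 11.81 in T23 and 10.65 in T1525, against 12.07 and 12.48 in normal prostate, and fell in T1525 (limma, adjusted p = 0.0263). With 2 of 7 higher in T23 and 1 higher and 1 lower in T1525, the list stood beside 16.3%, 17.2% and 12.6% of all probes. Itgb5, a beta chain partner of Itgav, rose in T23 (11.59 against 10.08 and 9.80, limma, adjusted p = 0.0209) and read 9.19 in T1525. Stab1, a scavenger receptor of macrophages and sinusoidal endothelium, was below background in both lines and at 7.35 and 8.90 in normal prostate (class adjusted p = 0.121). Lrp1, an endocytic receptor, read 10.47 in T23 and 7.65 in T1525. Over the list the median difference was -0.02 in either line.

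Of 12 genes of the engulfment machinery, 10 had a probe and 9 were tested. In T23, 2 rose, Gulp1 and Bcar1 (1 with cyclic loess), and 1 fell, Elmo1, while none was called in T1525 or in the class comparison; of all probes 16.3% rose and 12.8% fell in T23. Elmo1, the Dock1 partner that activates Rac, read 7.86 in T23 and 10.01 in T1525, against 9.94 and 10.31 in normal prostate (T23: limma, adjusted p = 0.0144). Gulp1, an engulfment adaptor, read 8.66 in T23, 7.30 in T1525 and 6.99 and 6.67 in normal prostate (T23: limma, adjusted p = 0.0186). Vav1, an exchange factor of blood cells, was below background in both lines and at 7.45 and 9.18 in normal prostate, and was not called (limma, class adjusted p = 0.152). Of 20 adaptors and effectors of receptor signalling, 18 had a probe, 12 were tested and 2 rose in T23, Shc1 and Ptpn11, a share close to the 16.3% of all probes that rose there. Ptpn11, the phosphatase SHP2, read 10.46 in T23 and 9.26 in T1525, against 9.27 and 8.89 in normal prostate (T23: limma, adjusted p = 0.0344). Shc1, an adaptor of receptor kinases, read 8.32 in T23 and 7.18 in T1525 against 6.89 and 6.75 (T23: limma, adjusted p = 0.0209). Socs3, a feedback inhibitor of cytokine signalling, spanned 7.25 to 10.46 over the normal pair. The median difference in T23 was 0.45 for the engulfment list and 0.19 for the adaptors. Elmo1, Shc1 and Ptpn11 each had called and uncalled probes; the brightest probe stands for a gene.

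A further list held regulators and targets of YAP, TEAD and AP-1, factors known to act on the Axl gene in human cells. Of 16 genes, all with a probe, 14 were tested, with 8 higher and 0 lower in T23, where 16.3% of all probes rose and 12.8% fell. In T1525 2 of the 14 rose, Jun and Tead2, and 1 fell, Junb, beside 17.2% of all probes higher and 12.6% lower. Ankrd1, a YAP target, read 12.06 in T23 and 6.38 in T1525, against 7.00 and 7.75 in normal prostate (T23: limma, adjusted p = 0.00838), at least 41.2-fold higher in T23 than in T1525. Ccn1, a secreted matricellular YAP target, read 11.44 in T23 and 6.85 in T1525, against 6.50 and 6.79 in normal prostate (T23: limma, adjusted p = 0.0056). Jun, an AP-1 subunit, rose in the class comparison by 2.49 (limma, SE 0.22, adjusted p = 0.0177) and was at 10.82 and 10.75 in the 2 lines. The list's median difference was 1.37 in T23 and 0.17 in T1525, and that of T23 minus T1525 was 0.99, beside 0.0013 over all probes. Tead4, among the 8, and Wwtr1 had called and uncalled probes. With cyclic loess 6 rose in T23, and 1 rose and 1 fell in T1525. Of the factors themselves, by the brightest probe, Tead4, Fosl1 and Jun rose in T23. Yap1, Wwtr1, Tead2, Tead3, Fos and Junb were not called there, and Tead1 was below background on every array. The difference between the lines was not tested, with 1 array each, and neither was a link of this list to Axl.

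Of 8 genes of the mesenchymal state, 6 were more than 2-fold higher in T23 than in T1525, where 9.98% of probes were; Snai1 and Cdh2, at 0.48 and -0.08 on the log2 scale, were not. Of the 8, all tested, 4 rose in T23 (Twist1, Fn1, Snai2 and Cdh2), where 16.3% of all probes rose. In T1525 Cdh2 rose and Zeb1 and Zeb2 fell, beside 17.2% of probes higher and 12.6% lower. Cdh2 also passed in the class comparison. With cyclic loess 2 rose in T23 and 1 fell in T1525. Twist1, a transcription factor of mesenchyme, read 11.37 in T23 and 7.57 in T1525, against 7.77 and 8.02 in normal prostate (T23: limma, adjusted p = 0.00686). Zeb1, a repressor of epithelial genes, read 10.73 in T23, below background at 5.88 in T1525, and 10.24 and 10.61 in normal prostate (T1525: limma, adjusted p = 0.00523). All 5 fibroblast markers were more than 2-fold higher in T23 than in T1525, with a median log2 difference of 6.17. Col1a1, a chain of type I collagen, read 12.77 in T23 and 5.92 in T1525, against 9.08 and 10.99 in normal prostate. Of 5 epithelial markers, 4 were more than 2-fold higher in T1525, where 10.3% of probes were, and the median was -4.59: Krt8, a keratin of simple epithelium, read 5.98 in T23, 14.12 in T1525, and 13.55 and 14.06 in normal prostate. Fn1, Cdh2 and Col3a1 had called and uncalled probes. The difference between the lines also chose the genes, so these lists are no independent support for the Axl pattern.

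**Figure D4:**
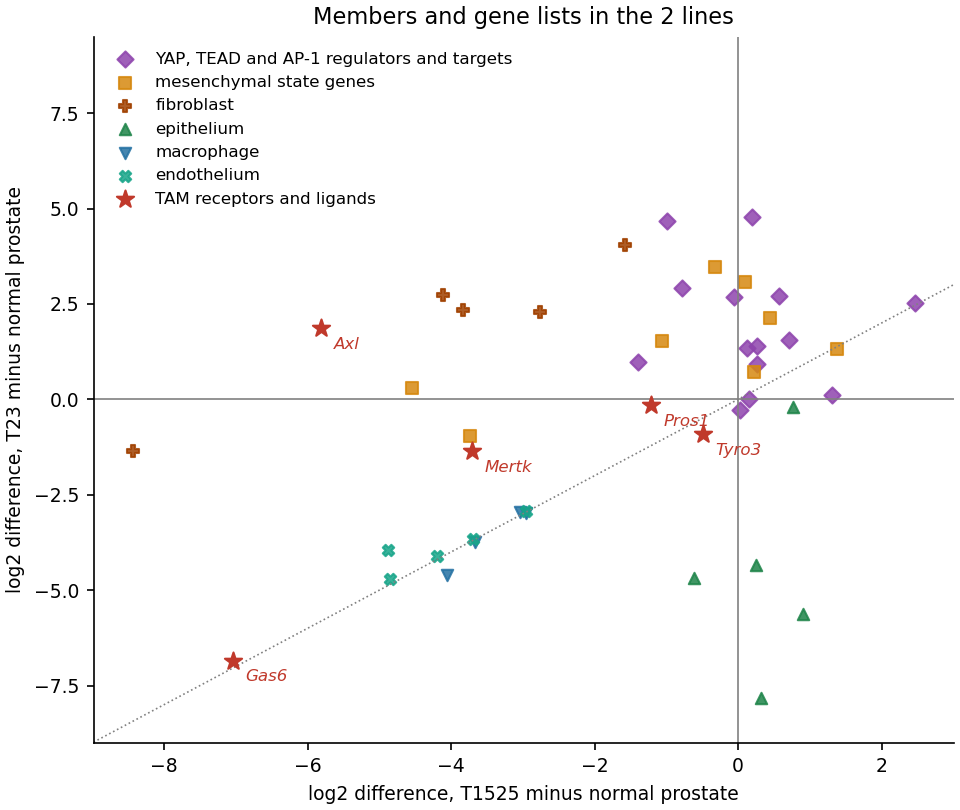
Log2 difference from the normal mean in T1525 (horizontal axis) and in T23 (vertical axis), 1 point per tested gene of 6 lists and of the TAM set (red stars), as measured; the dotted line marks equal differences. Axl lies in the upper left, as do the fibroblast markers other than Dcn, Gas6 lies on the dotted line at the lower left beyond the endothelial and macrophage markers, and epithelial markers lie below it.

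The genes whose profile over the 4 arrays lay closest to that of Axl, by Euclidean distance of log2 values centred on each gene's mean among 10898 genes, were Serpinh1, Col6a1, Cavin2, Aebp1 and Scarf2, at distances from 0.53 to 0.76. Serpinh1, the collagen chaperone Hsp47, read 14.51 in T23 and 6.24 in T1525, against 12.21 and 13.04 in normal prostate. Col6a1, a chain of type VI collagen, read 13.77, 6.08, 11.99 and 12.87 on the same arrays. In all 5 neighbours T1525 was below background and T23 above both normal samples. For Gas6 the closest were Atp2a1, Cyp4a12a, Spink8, Bhlha15 and Cldn10, at distances from 0.28 to 0.61. Atp2a1, the calcium pump of fast skeletal muscle, read 6.22 in T23 and 6.13 in T1525, against 13.10 and 13.28 in normal prostate, and Bhlha15, a transcription factor of secretory cells, read 6.04, 6.11, 12.73 and 12.26. With 4 arrays many genes share such profiles, and likeness says nothing of shared control.

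**Figure D5:**
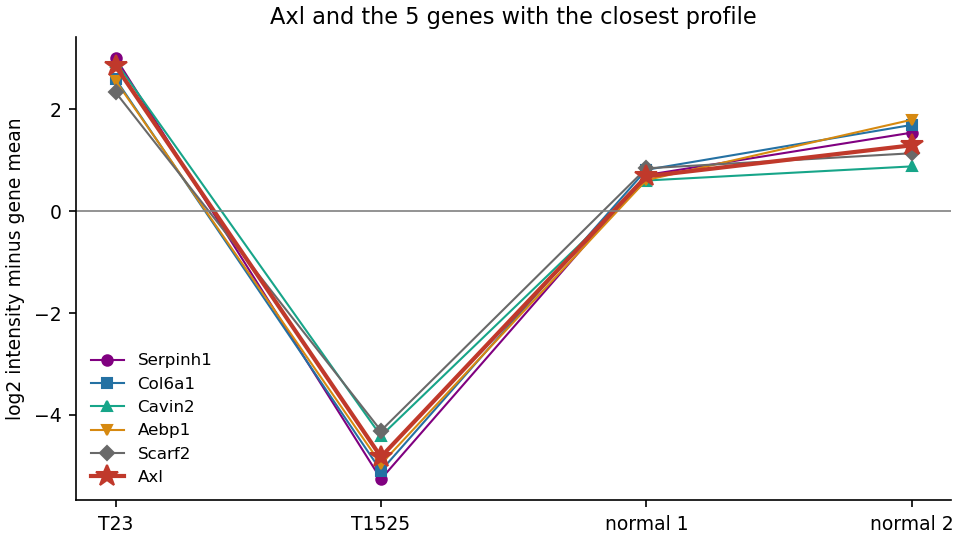
Log2 intensity minus the gene's own mean over the 4 arrays (vertical axis) for Axl (red, stars) and the 5 genes with the closest profile, on each array (horizontal axis); lines join the points of 1 gene and imply no order of arrays. In all 6 genes T23 is highest and T1525 lowest.

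Normal prostate is a mixed tissue, and fewer cells of a type cannot be told apart there from less RNA per cell. Cell types known to express members were represented in normal prostate and, in several cases, not in the lines. Of 5 macrophage markers with a probe, 4 were above background in each normal sample and 0 in either line, where their summed intensity was 353 in T23 and 386 in T1525 against 1924 in normal 1 and 7622 in normal 2; Cd163 was below background on all 4 arrays. Of 3 leukocyte markers, 2 were above background in each normal sample and 0 in the lines, with summed intensities of 183 and 215 in the lines against 6969 and 30607; Ptprc was below background on every array. Of 5 endothelial markers all were above background in normal prostate, 2 in T23 and 1 in T1525, with summed intensities of 558 and 451 in the lines and 5792 and 14290 in normal prostate. Of 5 smooth muscle markers all were above background in normal prostate, 2 in T23 and 0 in T1525, with sums of 27516 and 357 in the lines and 127084 and 122106 in normal prostate; most of the T23 sum was Acta2, at 14.72. The 5 fibroblast markers summed to 32748 in T23 and 508 in T1525, against 21393 and 42866 in normal prostate. The part of these cell types in the fall of Gas6 and Mertk was not tested.

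Macrophage, leukocyte, endothelial and fibroblast markers stood higher in normal 2 than they did in normal 1, by medians of 1.77, 2.12, 1.30 and 1.45 on the log2 scale. Prostate luminal markers stood lower there, with a median difference of -0.79, though Tgm4 did not (15.69 and 15.75). The medians for epithelial and smooth muscle markers were 0.07 and -0.04, and the median over all probes was -0.04. Pros1 and Axl were higher in normal 2 too, by 1.37 and 0.61, whereas the differences of normal 2 from normal 1 were -0.64 for Mertk, -0.17 for Gas6 and -0.07 for Tyro3. The part of these cell types in the gap between the normal samples was not tested.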

How the data were processed

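Total RNA of 4 samples was labelled with biotin and hybridised to Illumina bead arrays, per the labels' protocols. The authors deposited normalized intensities on a linear scale for 24613 probes; per the submitters' processing notes BeadStudio was used, while neither its version nor the way of normalizing is stated in those sources. The 4 columns held nearly the same sorted values (median gap 0.183%), as after quantile normalization. A second table has 8 columns named by slide position only, which were not used here, so neither detection p-values nor slides could enter.

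The log2 of the deposited intensity was tested in limma 3.58.1 (R 4.3.3), by two-sided tests whose p-values were adjusted by Benjamini-Hochberg over the 15767 probes above background on at least 1 array and a threshold of 0.05. The background threshold was the mode of all log2 values (6.12) plus the upper 0.01 tail of a normal curve whose SD came from the values left of that mode (0.247). The lines were compared with normal prostate as classes (2 residual and 2.07 prior degrees of freedom) and singly in a fit of 3 groups (1 residual, 2.95 prior), where a line is assumed to vary like the normal pair. The brightest kept probe stands for a gene. A single symbol was given for 20984 probes, several for 1 and none for 3628; 20968 symbols were found by Entrez ID in RefSeq's GRCm38.p6 table and 0 changed.

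The members, lists and tests were chosen with earlier results of these data known. Genes named were all 5 members; of each of 14 lists up to 3 genes by the class difference and 2 by the difference between the lines; and the 5 genes with the nearest profile per member. Plscr1, Bcar1, Yap1, Wwtr1, Tead1, Tead2, Tead3, Tead4, Fosl1, Fos, Junb, Snai1, Snai2, Cdh2 and Epcam stand outside that rule. They were named after their values were seen, as parts of small counts or exceptions, as were Cd163 and Ptprc. List medians cover every gene with a probe. The fits were tested on simulated data. Alternatives were no filter or a filter on 2 arrays, tails of 0.001 and 0.05, median scaling, cyclic loess, an intensity trend, the spread of the normal pair alone, and each array left out. The number of arrays limits the precision. Plots used matplotlib 3.10.9 (Python 3.11.15).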

Additional observations from a re-analysis of the deposited data

Results flagged for a closer look

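In 12 of 53 genes examined, the 5 members and the genes named by list, T23 lay beyond both normal samples on one side and T1525 beyond both on the other; this difference between the lines was not tested, with 1 array each. Over all 15767 probes 16.5% had this pattern, and up to 2 genes of each list were named for a large difference between the lines, so the count rests in part on genes chosen for it. Given as T23 minus T1525 on the log2 scale, Axl was at 7.67. Ankrd1, the YAP target, was at 5.68, and Lrp1 and Itgb5 of the phosphatidylserine list were at 2.82 and 2.40. Zeb1 was at 4.85 and Twist1 at 3.80, and the collagen genes Col1a1, Col1a2 and Col3a1 were at 6.84, 5.63 and 6.17. On the other side Krt8 was at -8.14, Krt19 at -6.54 and Tub, a reported Mertk ligand read close to background, at -0.95.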

How the results depend on the processing

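Over the alternatives run, Gas6 was called in T23 and in T1525 in 8 of 8 and in the class comparison in 10 of 12, the exceptions being the fits without normal 1 or normal 2. Mertk was called in T1525 in 8 of 8. These alternatives are not independent checks. For a single line, leaving out the other line gave the same fit again and could not change the call. The class comparison without 1 line is the comparison of the remaining line. Median scaling hardly moved values whose sorted columns were already nearly the same. In T23, 1 tested member was called in the fit reported, 2 without a filter on low values or with an intensity trend (Tyro3 added), and 3 with probes above background on at least 2 arrays and with cyclic loess (Tyro3 and Mertk added). With the spread from the normal pair alone 2 tested members and 5747 probes passed in the class comparison, against 1 and 1698. Leaving out 1 array each gave between 0 and 2 members and between 0 and 4695 probes, and the Axl class difference turned to 1.86 without T1525 and was -5.81 without T23. Without normal 1 and normal 2 limma called 0 probes, with 2547 and 2342 at an unadjusted p under 0.05 against 4990. Cyclic loess moved the median class difference of all tested probes from 0.19 to 0.02 and the share of calls that were higher from 52.4% to 37.8%, and no member changed sign with it. The causes were not tested. No paired analysis was possible because the labels match neither line to a normal sample. Other probes of a member were not run, as each had 1, and a single line without a normal array has no residual degrees of freedom, so it gave values only. Levels at background limit the folds of Axl and Tyro3 in T1525.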

Other observations

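The closest profiles to Mertk were those of Gjb2, Fkbp11, Il15, Fabp3 and Gspt2, at distances from 0.25 to 0.45 over 4 arrays. Gjb2, a gap junction protein, read 8.22 in T23 and 6.21 in T1525, against 10.04 and 9.32 in normal prostate on the log2 scale. Il15, a cytokine that acts on lymphocytes, read 8.56, 6.04, 10.54 and 9.70 on the same arrays. All 5 but Fkbp11, which read 9.44 in T1525, were below background there. The closest to Pros1 were Nfkbiz, Ccdc88b, Cd14, Spsb1 and St6gal1, at distances from 0.18 to 0.33. Cd14, the coreceptor for lipopolysaccharide, read 9.08 in T23 and 7.60 in T1525, against 8.38 and 9.85 in normal prostate, with T23 between the normal samples as for Pros1. The closest to Tyro3 were Cdk5, Slc6a4, Cd2bp2, Sdhc and Scel, at distances from 0.026 to 0.066. Tyro3 itself moved little over the arrays, so many genes lie near it.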
